A study of Homo sapiens with 48 samples.

Results

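The genes described here are 10 transcription factors of the AP-1 and C/EBP families: FOS, FOSL1 and FOSL2, JUN, JUNB and JUND, ATF3, and CEBPB, CEBPD and CEBPG. They were taken by symbol from a table of 19509 genes counted in every library, and all 10 were found. RNA was sequenced from 48 libraries of IMR90 cells, a line of human lung fibroblasts, that carried ER:RAS G12V, an oncogenic HRAS fused to a hormone-responsive part of the estrogen receptor. The cells received 4OHT (4-hydroxytamoxifen), which switches the fusion on and drives RAS-induced senescence, or its solvent DMSO as control. On day 6 they were transfected with an siRNA against the splicing factor SF3B1 (siSF3B1-13 or siSF3B1-16), against the splicing factor RBM39 (siRBM39-06 or siRBM39-08), or with a non-targeting siRNA (siNT1 or siNT2). RNA was taken 2 days later from cells in 0.5% FBS. This gave 6 groups of 8 libraries, with 4 libraries for each siRNA in each treatment. The 4 libraries titled 4OHT siNT2 also carry a treatment label naming siNT1, and the title was followed, which leaves the group of 8 unchanged. All groups carried the transgene and all were transfected, so none shows IMR90 cells without ER:RAS or without an siRNA. The labels do not say whether libraries of a group came from separate cultures, and p-values then measure only the spread between these libraries.

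AP-1 is a dimer of basic leucine zipper proteins. JUN proteins pair with each other or with FOS or ATF proteins, whereas FOS proteins need a JUN partner, and the dimer binds a short DNA element in the promoters and enhancers of genes for growth, stress and matrix remodelling. C/EBP proteins are also basic leucine zipper factors. CEBPB and CEBPD activate inflammatory genes such as IL6 and IL8, and CEBPG, which lacks an activation domain, dampens them as a dimer partner. In senescent fibroblasts AP-1 is known as an organiser of the enhancer landscape, and CEBPB as a driver of the senescence-associated secretory phenotype (SASP), the release of cytokines and proteases. Several of these genes are immediate-early genes, whose RNA is short-lived and quickly made. SF3B1 is the subunit of the U2 snRNP that holds the branch point near the 3′ end of an intron, and RBM39 is an RNA-binding factor that helps to select splice sites.

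The libraries held between 31467221 and 52734636 counts on genes. Levels are given as CPM, counts scaled by the TMM method to one common library size, and levels of different genes are compared only as cRPKM, the deposited reads per length of uniquely mappable transcript and library size. SF3B1 fell from a mean of 359 to 32.8 CPM with siSF3B1 in DMSO and from 328 to 27.3 CPM in 4OHT. RBM39 fell from 170.3 to 27.4 CPM and from 120.2 to 16.3 CPM with siRBM39. All 9 fibroblast markers were detected in every library, with summed levels of 70428 to 81208 CPM in DMSO siNT and 21224 to 22110 CPM in 4OHT siNT. The summed levels of 4 epithelial markers were 1.86 to 34.02 CPM, and those of 3 endothelial markers were 0.643 to 8.43 CPM. The 5 immune markers summed to 33.1 to 113.5 CPM, nearly all of it CD68, which is also a lysosomal gene, while PTPRC reached at most 0.196 CPM. With RAS in siNT, 3 of 6 senescence and cell cycle genes fell, MKI67 (-3.58 on the log2 scale), LMNB1 (-2.47) and CCNA2 (-2.07), and 3 rose, CDKN2B (2.38), CDKN1A (0.83) and CDKN2A (0.68). One library, 4OHT siRBM39-08 replicate 4, stood apart in how its counts followed the GC content of genes. Its log2 counts, relative to the mean of its own 4 libraries of the same siRNA and treatment, increased by 0.465 for each 10 points of GC content, where the slopes of the other 47 libraries were between -0.210 and 0.182. Because JUND, CEBPB, CEBPD and JUNB are rich in GC, members called with siRBM39 against siNT in 4OHT are also given without it. The RAS effects in siRBM39 cells, the cRPKM sums and shares, the target genes and most direct comparisons of the knockdowns in 4OHT include it.

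A difference in RNA processing described below concerned the last intron of FOSL2, and the ends of all 3 FOSL2 introns are therefore shown first. FOSL2 lies on the plus strand of chromosome 2 at chr2:28615315-28640184 in GRCh37 and has 4 exons. Each line gives the last 75 bases of an intron and the first 6 bases of the next exon, read from GRCh37 at the GENCODE exon borders, with the AG that ends the intron in capitals. The windows are chr2:28626899-28626979 for intron 1, chr2:28631551-28631631 for intron 2 and chr2:28634722-28634802 for intron 3. In intron 3 a further AG in capitals marks an alternative 3′ splice site 51 bases upstream. That site was placed by its distance and the AG found there, not by event coordinates.
FOSL2 intron 1: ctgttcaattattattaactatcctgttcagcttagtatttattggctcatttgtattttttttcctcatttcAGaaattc
FOSL2 intron 2: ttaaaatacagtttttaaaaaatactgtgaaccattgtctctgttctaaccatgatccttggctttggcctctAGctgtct
FOSL2 intron 3: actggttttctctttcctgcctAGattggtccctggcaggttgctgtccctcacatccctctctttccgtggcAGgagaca
All 3 introns begin with GT. Of the 20 bases before the final AG, 85% were C or T in intron 1, 70% in intron 2 and 80% in intron 3. Introns 1 and 2 have no AG at the position of the upstream site in intron 3.

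Of the 10 genes, 9 had the 10000 counts in total needed for the test, and FOS, with 3803 counts over all libraries, did not. FOS was tested in a second fit of 17872 genes with at least 1 count. All tests of single genes are edgeR's quasi-likelihood test with Benjamini-Hochberg adjustment over all genes tested, 9991 in the main fit, and a gene is called at an adjusted p under 0.05. With RAS in siNT cells the 9 genes split, as FOSL1, JUNB and CEBPB rose and CEBPG, FOSL2, JUND, CEBPD, JUN and ATF3 fell. So 3 of 9 were called higher and 6 lower, where 39% of all genes tested were called higher and 39.1% lower. The median change of the 9 was -0.17 on the log2 scale and that of all genes tested was 0.00 (-0.0019). With siSF3B1 in DMSO, 6 of 9 rose and 0 fell, where 36.5% of all genes rose and 36.2% fell. With siSF3B1 in 4OHT, 7 rose and 1, CEBPD, fell, where the shares of all genes were 39.4% and 37.6%. With siRBM39 in DMSO, 3 rose and 0 fell, where 23.9% and 22.2% of all genes did. With siRBM39 in 4OHT, 4 rose and 1, JUN, fell, where 32.2% and 24.3% of all genes did. The medians of the 9 genes were 0.66 and 0.35 with siSF3B1 and 0.21 and 0.12 with siRBM39, in DMSO and 4OHT, and the medians of all genes in the same comparisons were between 0.016 and 0.046. Comparisons within a treatment share the 8 siNT libraries as controls, and the RAS comparison in siNT uses the same libraries, so these counts are not independent of each other. In bulk RNA, a change in the share of cells that express a gene and a change of its level in each cell cannot be told apart.

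**Figure D1:**
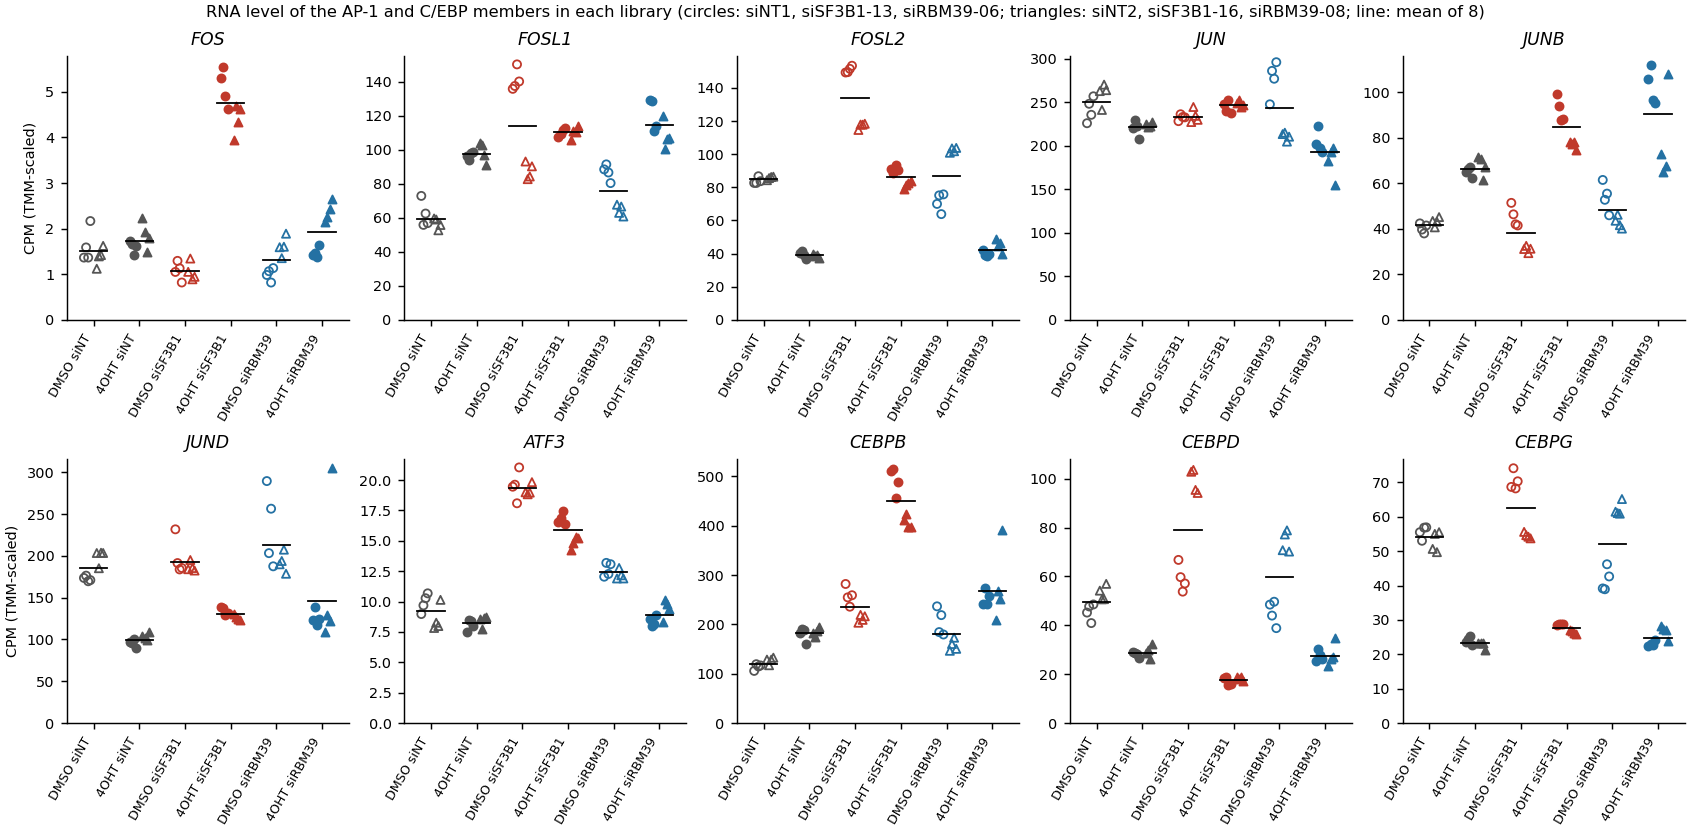
Level of each of the 10 genes in each of the 48 libraries, in CPM, with open symbols for DMSO, filled symbols for 4OHT, circles and triangles for the siRNAs of a target, and a line at the mean of 8. CEBPB was highest in 4OHT siSF3B1, at 397 to 514.5 CPM, where CEBPD was lowest, at 15.6 to 19.01 CPM.

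**Figure D2:**
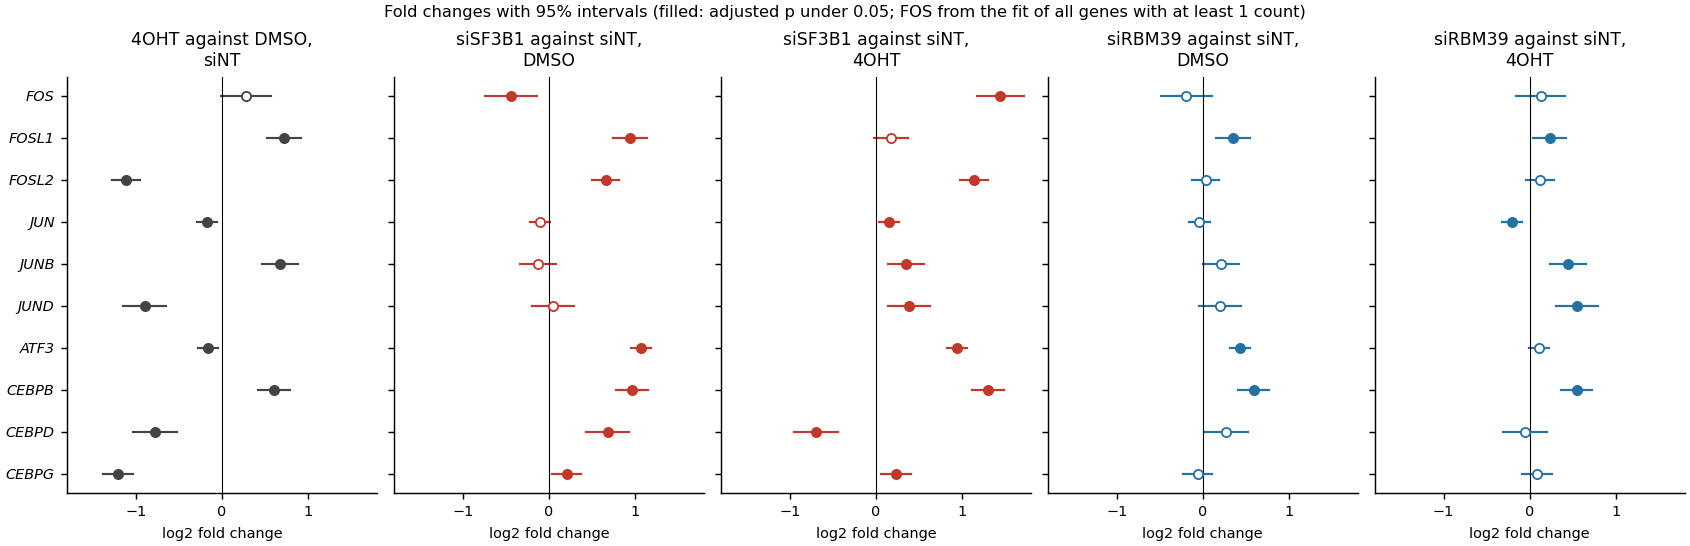
Fold change of each gene on the log2 scale (x axis) in 5 comparisons of 8 against 8 libraries, with 95% intervals. Filled points have an adjusted p under 0.05, and CEBPB is above 0 in all 5 panels.

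In the FOS group, RAS shifted the balance towards FOSL1. FOSL1 (FRA1) is the FOS protein that sustained RAS and ERK signalling is known to stabilise, and FOSL2 (FRA2) is a close relative. FOSL1 stood at a lowest, median and highest level of 52.7, 57.9 and 72.9 CPM in DMSO siNT and of 91.3, 97.4 and 104 CPM in 4OHT siNT, with no overlap. It rose by 0.72 ± 0.10 (log2, SE, adjusted p = 6.7e-09). FOSL2 went the other way, from 82.6, 84.9 and 86.7 CPM to 36.8, 39.1 and 41.9 CPM, a change of -1.12 ± 0.08 (log2, SE, adjusted p = 1.5e-17). FOS, the prototype of the group and an immediate-early gene, was near the limit of detection in siNT, at 1.12 to 2.17 CPM in DMSO and 1.43 to 2.24 CPM in 4OHT. Its difference of 0.28 ± 0.14 did not pass the test (adjusted p = 0.087, from the second fit).

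Knockdown of SF3B1 raised FOSL1 in DMSO and FOSL2 in both treatments. FOSL1 in DMSO siSF3B1 had a lowest, median and highest level of 82.7, 114 and 150.1 CPM, all above DMSO siNT, a change of 0.94 ± 0.10 (log2, SE, adjusted p = 7.1e-12). In 4OHT it stood at 106, 111 and 114 CPM, where the difference of 0.17 ± 0.10 from 4OHT siNT was not called (adjusted p = 0.097). It was called with one mean per siRNA (adjusted p = 5.3e-04) and in a fit of those groups alone (adjusted p = 4.4e-05). The effect on FOSL1 was smaller in 4OHT than in DMSO by 0.77 ± 0.14 on the log2 scale (adjusted p = 1.3e-05), and in siSF3B1 cells the RAS effect on FOSL1 was -0.05 ± 0.10 (adjusted p = 0.64). That effect averages siRNAs with which FOSL1 went opposite ways. With siSF3B1-13 it stood at 135.8 to 150.1 CPM in DMSO and at 107.3 to 112.6 CPM in 4OHT, and with siSF3B1-16 at 82.7 to 93.1 CPM in DMSO and at 105.6 to 114.2 CPM in 4OHT, with no overlap in either case. The RAS effect within each siRNA was not tested. FOSL2 rose with siSF3B1 to 115, 134 and 153 CPM in DMSO, by 0.66 ± 0.08 (adjusted p = 2.7e-10), and to 78.7, 86.3 and 93.7 CPM in 4OHT, by 1.14 ± 0.08 (adjusted p = 1.3e-17). Its level in 4OHT siSF3B1 thus spanned that in DMSO siNT. The effect on FOSL2 was larger in 4OHT by 0.48 ± 0.11 (adjusted p = 4.7e-04).

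FOS RNA was highest in 4OHT cells depleted of SF3B1. It stood at 3.94, 4.65 and 5.55 CPM in 4OHT siSF3B1 (lowest, median and highest), above every other library of the study, against 0.820 to 1.34 CPM in DMSO siSF3B1. With siSF3B1 it rose by 1.44 ± 0.13 (log2, SE) in 4OHT (adjusted p = 2.1e-13) and fell by 0.44 ± 0.15 in DMSO (adjusted p = 0.011). The difference between these effects was 1.89 ± 0.20 (adjusted p = 2.2e-10), and the RAS effect in siSF3B1 cells was 2.17 ± 0.14 (adjusted p = 5.4e-19). Even so, its level per length was 2.14 ± 0.21 cRPKM in 4OHT siSF3B1 (SD, n = 8), below that of FOSL1, which was 64.9 ± 1.9 cRPKM.

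With siRBM39 the FOS group moved less. FOSL1 stood at 60.8, 74.0 and 91.4 CPM in DMSO, a rise of 0.35 ± 0.10 (adjusted p = 0.0029), and at 100.5, 112 and 129 CPM in 4OHT, a rise of 0.23 ± 0.10 (adjusted p = 0.040). The call in 4OHT was lost without any one replicate number, with adjusted p between 0.058 and 0.21, and was kept at 0.032 without 4OHT siRBM39-08 replicate 4 alone. FOSL2, at 63.8 to 103.8 CPM in DMSO and 38.8 to 48.7 CPM in 4OHT, was not called in either (log2 differences of 0.03 ± 0.08 and 0.12 ± 0.08, adjusted p = 0.75 and 0.20), although in 4OHT it was with one mean per siRNA (adjusted p = 0.0018). Neither was FOS, with differences of -0.19 ± 0.15 and 0.13 ± 0.14 (adjusted p = 0.35 and 0.50).

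In the JUN group, RAS raised JUNB and lowered JUND. JUNB and JUND are partners of FOS proteins like JUN, and JUND is known as the member that restrains growth. JUNB went from 37.99, 41.9 and 45.2 CPM (lowest, median and highest) in DMSO siNT to 61.4, 66.6 and 71.4 CPM in 4OHT siNT, a rise of 0.67 ± 0.10 (log2, SE, adjusted p = 1.6e-07). JUND went from 169.7, 181 and 204 CPM to 89.3, 100.04 and 109 CPM, a change of -0.90 ± 0.12 (adjusted p = 6.5e-09). Neither pair of groups overlapped. JUN, the core subunit that can pair with itself, differed little. It stood at 226, 252 and 270.1 CPM in DMSO and at 208, 223 and 229.8 CPM in 4OHT, groups that overlapped, with a change of -0.17 ± 0.06 (adjusted p = 0.0068). That call was lost when all genes with at least 1 count were fitted (adjusted p = 0.15).

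No JUN gene was called with siSF3B1 in DMSO, where the differences were 0.05 ± 0.12 for JUND, -0.13 ± 0.10 for JUNB and -0.10 ± 0.06 for JUN (log2, SE, adjusted p = 0.72, 0.27 and 0.11). With one mean per siRNA, JUNB and JUN were called there (adjusted p = 0.038 and 0.013). In 4OHT all 3 rose. JUND went up to 124, 130.2 and 139 CPM, by 0.39 ± 0.12 (adjusted p = 0.0038), and did not overlap 4OHT siNT. JUNB went up to 74.5, 83.0 and 99.2 CPM, by 0.35 ± 0.10 (adjusted p = 0.0024), also with no overlap. JUN went up to 237, 247 and 253 CPM, by 0.15 ± 0.06 (adjusted p = 0.019), a call that was lost without replicates numbered 1 (adjusted p = 0.17) and 3 (adjusted p = 0.065). The effect was larger in 4OHT for JUNB, by 0.48 ± 0.15 (adjusted p = 0.0085), and for JUN, by 0.25 ± 0.08 (adjusted p = 0.013), the latter lost without replicates 1 and 3 and in the fit of genes with at least 1 count (adjusted p between 0.068 and 0.10). The JUNB difference uses the DMSO mean over both siRNAs and was not tested for each siRNA.

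With siRBM39 in 4OHT, JUND and JUNB rose and JUN fell. JUND stood at 109, 124 and 305 CPM and rose by 0.55 ± 0.12 (log2, SE, adjusted p = 1.5e-04). The 305 CPM came from 4OHT siRBM39-08 replicate 4, and the other 7 libraries held at most 139 CPM. Without that library JUND rose by 0.31 (adjusted p = 1.8e-04). JUNB stood at 65.1, 95.9 and 112 CPM and rose by 0.44 ± 0.10 (adjusted p = 3.2e-04), or by 0.40 without the same library (adjusted p = 8.8e-04). This pooled JUNB rise came mostly from siRBM39-06, at 95.3 to 112 CPM. Under siRBM39-08 the lowest and median levels were 65.1 and 70.3 CPM, next to 61.4 to 71.4 CPM in 4OHT siNT. JUN stood at 155, 195 and 222 CPM and fell by 0.20 ± 0.06 (adjusted p = 0.0030), or by 0.16 without 4OHT siRBM39-08 replicate 4 (adjusted p = 0.0095). In DMSO none of the 3 was called, with differences of 0.20 ± 0.12 for JUND, 0.21 ± 0.10 for JUNB and -0.04 ± 0.06 for JUN (adjusted p = 0.18, 0.091 and 0.61). JUNB was called there with one mean per siRNA (adjusted p = 0.0092), in a fit of those groups alone (adjusted p = 0.041) and with the GC slope as a covariate (adjusted p = 0.049). The difference for JUND in DMSO had an adjusted p of 0.011 once 4OHT siRBM39-08 replicate 4 was left out, since the spread is estimated over all 48 libraries.

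ATF3, a stress-induced factor that pairs with JUN proteins, responded to loss of SF3B1 in both treatments. It stood at 7.82, 9.33 and 10.7 CPM (lowest, median and highest) in DMSO siNT and at 18.1, 19.2 and 21.04 CPM in DMSO siSF3B1, a rise of 1.07 ± 0.06 (log2, SE, adjusted p = 1.8e-21). In 4OHT it went from 7.46, 8.46 and 8.71 CPM to 14.3, 15.8 and 17.4 CPM, a rise of 0.94 ± 0.06 (adjusted p = 1.4e-19). The groups did not overlap in either treatment, and the difference of the effects, -0.13 ± 0.08, was not called (adjusted p = 0.23). With siRBM39 it rose in DMSO to 11.9, 12.2 and 13.2 CPM, by 0.43 ± 0.06 (adjusted p = 2.7e-08), also with no overlap. In 4OHT siRBM39 it stood at 8.00 to 10.1 CPM and was not called (0.11 ± 0.06, adjusted p = 0.11), except with one mean per siRNA (adjusted p = 0.044). The effect of siRBM39 was smaller in 4OHT by 0.32 ± 0.08 (adjusted p = 0.0049), a call lost without replicates numbered 2 (adjusted p = 0.0575), where 14.1% of all genes differed in this way. RAS in siNT lowered ATF3 by 0.16 ± 0.06 (adjusted p = 0.011), a call lost in the fit of all genes with at least 1 count (adjusted p = 0.205), with at least 5 counts in each library (adjusted p = 0.064) and without replicates 4 (adjusted p = 0.13).

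In the C/EBP family, CEBPB was higher in every comparison of 8 against 8 with siNT, and CEBPD and CEBPG fell with RAS. CEBPB stood at 105.7, 118 and 132 CPM (lowest, median and highest) in DMSO siNT and at 161, 185 and 195 CPM in 4OHT siNT, a rise of 0.60 ± 0.09 (log2, SE, adjusted p = 8.0e-08). With siSF3B1 it went up to 203, 228 and 282 CPM in DMSO, by 0.96 ± 0.09 (adjusted p = 5.4e-13), and to 397, 440.0 and 514.5 CPM in 4OHT, by 1.30 ± 0.09 (adjusted p = 2.55e-17). No library of either siSF3B1 group overlapped its siNT group. The effect was larger in 4OHT by 0.33 ± 0.13 (adjusted p = 0.035), a call lost without replicates 1, 2 or 3 and in the fit of genes with at least 1 count (adjusted p between 0.069 and 0.155). With siRBM39 CEBPB stood at 146, 176 and 237 CPM in DMSO, a rise of 0.59 ± 0.09 (adjusted p = 5.8e-07). In 4OHT siRBM39 it stood at 209.6, 255 and 391.8 CPM, a rise of 0.55 ± 0.09 (adjusted p = 1.7e-06). The 391.8 CPM came from 4OHT siRBM39-08 replicate 4, next to 274 CPM in the second highest library, and without it the rise was 0.45 (adjusted p = 4.7e-06).

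CEBPD, which is known to be induced quickly by cytokines, responded to SF3B1 loss in opposite directions in DMSO and 4OHT, as FOS did with the signs exchanged. It stood at 40.9, 49.6 and 57.0 CPM in DMSO siNT and at 53.8, 80.5 and 103.6 CPM in DMSO siSF3B1, a rise of 0.68 ± 0.12 (log2, SE, adjusted p = 4.6e-06). In 4OHT it fell, from 26.1, 28.6 and 32.35 CPM in siNT to 15.6, 18.2 and 19.01 CPM in siSF3B1, by 0.69 ± 0.13 (adjusted p = 4.7e-06). Groups overlapped in DMSO and did not overlap in 4OHT. The difference of the effects was -1.37 ± 0.18 (adjusted p = 2.6e-08), where 37.8% of all genes differed between treatments in their response to siSF3B1. RAS changed CEBPD by -0.78 ± 0.13 in siNT (adjusted p = 3.2e-07), by -2.16 ± 0.13 in siSF3B1 (adjusted p = 5.7e-20) and by -1.11 ± 0.13 in siRBM39 (adjusted p = 6.5e-11). With siRBM39 CEBPD ranged from 38.8 to 78.9 CPM in DMSO and from 23.3 to 34.7 CPM in 4OHT and was not called (0.28 ± 0.12 and -0.06 ± 0.13, adjusted p = 0.065 and 0.71). In DMSO it was called with one mean per siRNA (adjusted p = 0.0011).

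CEBPG fell with RAS by about as much as FOSL2. It went from 49.7, 55.3 and 56.9 CPM to 21.2, 23.3 and 25.4 CPM, a change of -1.21 ± 0.09 (log2, SE, adjusted p = 1.4e-17). With siSF3B1 it stood at 53.7, 61.9 and 74.1 CPM in DMSO, a rise of 0.21 ± 0.08 (adjusted p = 0.026), and at 25.8, 27.8 and 28.9 CPM in 4OHT, a rise of 0.24 ± 0.09 (adjusted p = 0.011). The call in DMSO was lost without replicates 1, 2 or 3 (adjusted p between 0.077 and 0.082), and that in 4OHT without replicates 1 (adjusted p = 0.075). With siRBM39 it ranged from 38.9 to 65.2 CPM in DMSO and from 22.3 to 28.3 CPM in 4OHT and was not called (-0.06 ± 0.08 and 0.08 ± 0.09, adjusted p = 0.59 and 0.42), except in 4OHT with one mean per siRNA (adjusted p = 0.045).

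RAS acted on most members in the same direction whichever siRNA was present. In siSF3B1 cells JUNB (1.15 ± 0.11) and CEBPB (0.94 ± 0.09) rose and CEBPD, CEBPG, FOSL2, JUND and ATF3 fell, 2 higher and 5 lower of 9, where 37.6% and 38.1% of all genes were called. In siRBM39 cells JUNB (0.90 ± 0.10), FOSL1 (0.60 ± 0.10) and CEBPB (0.56 ± 0.09) rose and CEBPD, CEBPG, FOSL2, JUN, JUND and ATF3 fell, where 39.1% and 36.4% of all genes were called. FOS rose with RAS in siRBM39 cells, by 0.60 ± 0.14 (adjusted p = 2.8e-04). The fall of FOSL2 with RAS was -1.12 ± 0.08 in siNT, -0.64 ± 0.08 in siSF3B1 and -1.03 ± 0.08 in siRBM39 cells. With RAS in siNT, 8 of 9 fibroblast marker genes fell and 0 rose, with a median of -2.09, and the part of that shift in the members' changes was not tested.

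Compared directly, the 2 knockdowns differed for 7 of 9 members in DMSO and for 5 of 9 in 4OHT, where 67.7% and 71.4% of all genes differed. In DMSO, siSF3B1 was above siRBM39 for ATF3 by 0.64 ± 0.06, FOSL2 by 0.63 ± 0.08, FOSL1 by 0.60 ± 0.10, CEBPD by 0.41 ± 0.12, CEBPB by 0.38 ± 0.09 and CEBPG by 0.27 ± 0.08, and JUNB was lower (-0.34 ± 0.10). The calls for CEBPD and CEBPG were lost in a fit of those groups alone (adjusted p = 0.067 and 0.076). These differences average both siRNAs of a target. The groups did not overlap for ATF3 and FOSL2, but for other genes single siRNAs did. FOSL1 stood at 82.7 to 93.1 CPM with siSF3B1-16 and at 80.4 to 91.4 CPM with siRBM39-06, and CEBPB at 203 to 219 CPM and 179 to 237 CPM. JUNB, at 41.5 to 51.4 CPM with siSF3B1-13, was not below its 40.1 to 46.2 CPM with siRBM39-08. In 4OHT it was above siRBM39 for FOSL2 by 1.02 ± 0.08, ATF3 by 0.83 ± 0.06, CEBPB by 0.75 ± 0.09 and JUN by 0.35 ± 0.06. CEBPD was then lower (-0.63 ± 0.13, adjusted p = 2.4e-05). For FOSL1 in 4OHT the difference was -0.06 with a 95% interval from -0.25 to 0.14, and for JUND it was -0.16 with an interval from -0.41 to 0.08, or 0.08 without 4OHT siRBM39-08 replicate 4 (adjusted p = 0.295).

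The siRNAs against one target did not act alike on these genes. The siNT siRNAs differed for 0 of 9 members in either treatment, where 1.63% of all genes differed in DMSO and 0.35% in 4OHT. At an unadjusted p under 0.05 in edgeR, 2 members, ATF3 (adjusted p = 0.109) and CEBPD (adjusted p = 0.256), differed between siNT1 and siNT2 in DMSO and 0 did in 4OHT. With limma-voom, and with the size factors of DESeq2 in edgeR, 0 were called as well, and with the GC slope of each library as a covariate 4 were in DMSO (JUND, ATF3, CEBPB and CEBPD). In DMSO, siSF3B1-13 and siSF3B1-16 differed for 6 of 9 members, where 37.3% of all genes differed. FOSL1 stood at 136 to 150.1 CPM with siSF3B1-13 and at 82.7 to 93.1 CPM with siSF3B1-16, a difference of -0.69 ± 0.06 (adjusted p = 1.1e-11). CEBPD went the other way, with 53.8 to 66.8 CPM for siSF3B1-13 and 94.2 to 103.6 CPM for siSF3B1-16, a difference of 0.74 ± 0.09 (adjusted p = 3.4e-09). JUNB (-0.54 ± 0.10), FOSL2 (-0.37 ± 0.04), CEBPG (-0.37 ± 0.05) and CEBPB (-0.28 ± 0.10) were lower with siSF3B1-16. Against the mean of the siNT siRNAs, FOSL1, FOSL2, ATF3, CEBPB and CEBPD were above 0 with both, while CEBPG was at 0.38 ± 0.04 with siSF3B1-13 and at 0.01 ± 0.04 with siSF3B1-16. In 4OHT, 4 of 9 members differed (27.9% of all genes), by at most -0.27 ± 0.10 for CEBPB. That count ran from 0, without replicates numbered 1, to 5, without 4OHT siRBM39-08 replicate 4.

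The siRBM39 siRNAs differed for 7 of 9 members in DMSO, where 47.6% of all genes differed, and here some effects had opposite signs. FOSL2 stood at 63.8 to 75.8 CPM with siRBM39-06 and at 101 to 103.8 CPM with siRBM39-08, on either side of the 82.6 to 86.7 CPM in DMSO siNT. Against siNT it was at -0.25 ± 0.04 and 0.27 ± 0.04 (log2, SE). CEBPG likewise stood at 38.9 to 46.2 CPM and at 60.9 to 65.2 CPM, at -0.38 ± 0.04 and 0.20 ± 0.04 against siNT. JUN was at 0.14 ± 0.05 and -0.25 ± 0.05. CEBPD was at -0.12 ± 0.08 and 0.59 ± 0.07. FOSL1 (-0.43 ± 0.06), CEBPB (-0.38 ± 0.10) and JUNB (-0.33 ± 0.09) were lower with siRBM39-08. FOS was higher with siRBM39-08 by 0.68 ± 0.15 in DMSO (adjusted p = 4.2e-04) and by 0.64 ± 0.14 in 4OHT (adjusted p = 6.2e-04). The means over both siRNAs of siRBM39 in DMSO, near 0 for FOSL2, CEBPG and JUN, thus averaged effects of opposite sign. ATF3 and CEBPB rose with each siRBM39 siRNA in DMSO, ATF3 by 0.46 ± 0.06 and 0.40 ± 0.06 and CEBPB by 0.77 ± 0.09 and 0.39 ± 0.09. In 4OHT 4 of 9 members differed (31.6% of all genes). These were JUNB (-0.39 ± 0.09), CEBPG (0.21 ± 0.05), FOSL2 (0.17 ± 0.05) and JUN (-0.16 ± 0.05). Without 4OHT siRBM39-08 replicate 4, the JUNB difference was -0.58 (adjusted p = 9.0e-09) and the JUN call was lost (adjusted p = 0.13). The rise of JUNB with siRBM39-08 alone in 4OHT, 0.24 ± 0.08, was 0.045 without that library (adjusted p = 0.54).

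**Figure D3:**
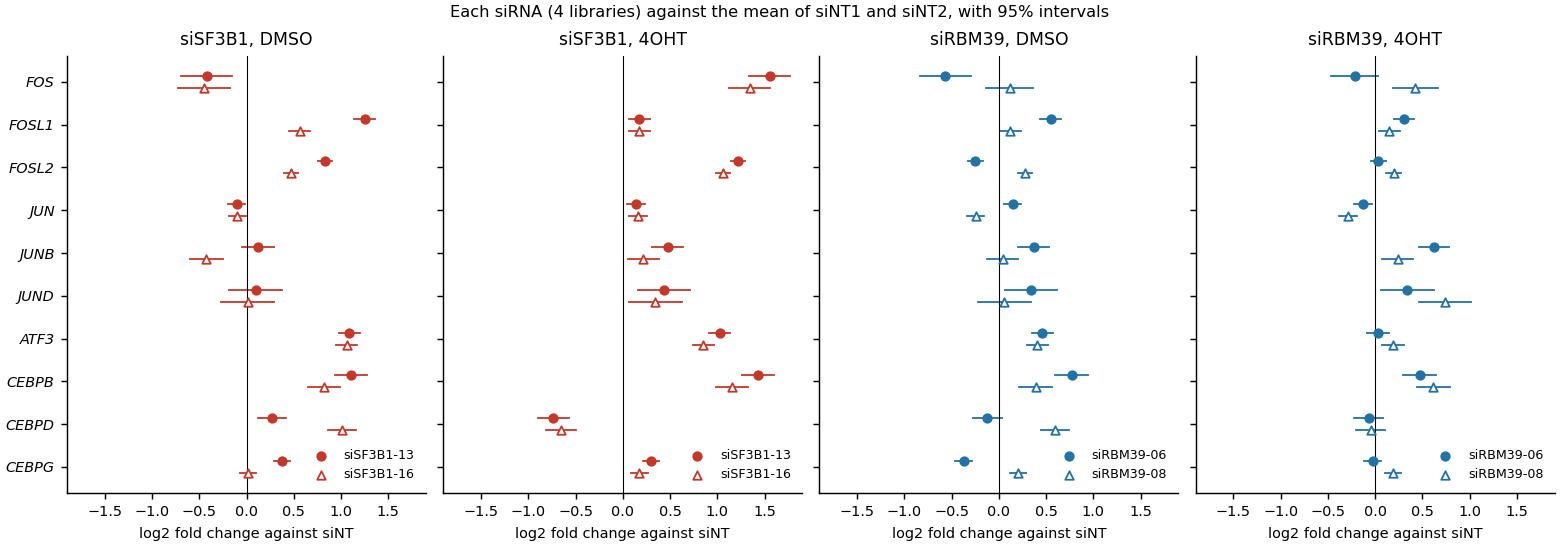
Fold change on the log2 scale (x axis) of each gene with each siRNA (4 libraries, circles and triangles) against the mean of siNT1 and siNT2, with 95% intervals, in DMSO and 4OHT. The 2 siRNAs against RBM39 lie on either side of 0 for FOSL2, JUN and CEBPG in DMSO, while both siRNAs against SF3B1 lie above 0 for FOSL2, ATF3 and CEBPB in both treatments.

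On the cRPKM scale the make-up of each family changed with RAS. FOSL1 accounted for 73.0 ± 2.1% (SD, n = 8) of the summed FOS, FOSL1 and FOSL2 level in DMSO siNT and for 89.99 ± 0.5% in 4OHT siNT. FOSL2 went from 25.5 ± 1.9% to 8.78 ± 0.49%, and stood at 15.6 ± 0.8% in 4OHT siSF3B1. Among the JUN genes, JUND made up 50.4 ± 1.2% in DMSO siNT and 34.1 ± 0.9% in 4OHT siNT, while JUNB went from 11.7 ± 0.5% to 23.5 ± 0.8%. Among CEBPB, CEBPD and CEBPG, CEBPB made up 64.0 ± 1.3% in DMSO siNT, 83.8 ± 0.7% in 4OHT siNT and 94.1 ± 0.6% in 4OHT siSF3B1, where CEBPD and CEBPG made up 3.15 ± 0.43% and 2.79 ± 0.17%. Over all 10 genes the summed level was 368 ± 18 cRPKM in DMSO siNT and 357 ± 12 cRPKM in 4OHT siNT, ranges that overlapped. It was 482 ± 28 and 530 ± 27 cRPKM in the siSF3B1 groups, and 440 ± 51 and 433 ± 54 cRPKM in the siRBM39 groups. CEBPB alone supplied 45.5 ± 2.0% of the sum in 4OHT siSF3B1, against 18.7 ± 0.7% in DMSO siNT, where JUND was the largest share at 28.1 ± 1.1%. These shares are descriptions of levels already tested gene by gene.

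**Figure D4:**
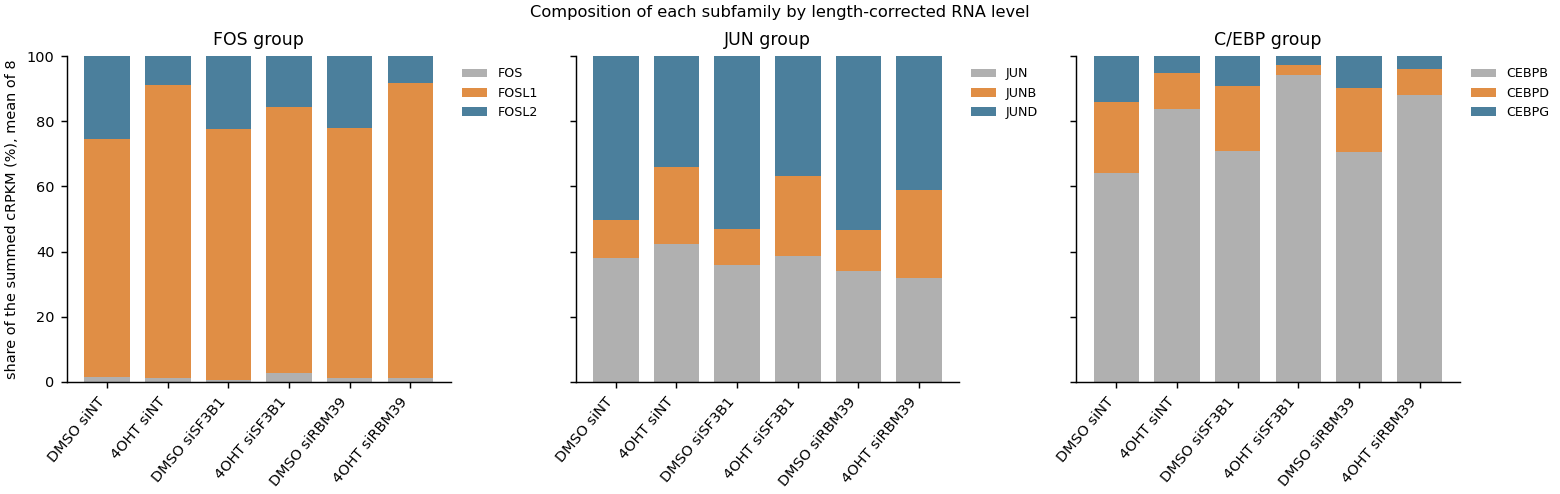
Share of each gene in the summed cRPKM of the FOS genes, the JUN genes and the C/EBP genes (y axis, percent), as means of 8 libraries in each of the 6 groups. FOSL1 goes from 73.0% to 89.99% and CEBPB from 64.0% to 83.8% between DMSO siNT and 4OHT siNT, and CEBPB reaches 94.1% in 4OHT siSF3B1.

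Of the 10 genes, 5 have no intron. JUN, JUNB, JUND, CEBPB and CEBPD are single-exon genes in the GENCODE annotation, CEBPG has 2 exons, and FOS, FOSL1, FOSL2 and ATF3 have 4 each. Among all genes tested, 164 had a single exon and 9717 had introns. With siSF3B1, 62.8% of the single-exon genes and 36% of the genes with introns were called higher in DMSO, and 76.2% and 38.7% in 4OHT. The median change of the single-exon genes was 0.31 in DMSO and 0.47 in 4OHT, next to 0.01 and 0.02 for the genes with introns. With siRBM39, 32.9% and 23.7% were higher in DMSO, and 53% and 31.7% in 4OHT. With RAS in siNT the shares were 37.2% and 39.1%. Among the 5 members without introns, CEBPB and CEBPD rose with siSF3B1 in DMSO, and CEBPB, JUND, JUNB and JUN rose and CEBPD fell in 4OHT. Of the 4 members with introns that were tested, FOSL1, FOSL2, ATF3 and CEBPG rose in DMSO, and all but FOSL1 rose in 4OHT. Of the 5 single-exon members, 4 are rich in GC, with 69.9% GC in JUND (the 99.8th percentile of the genes tested), 66.2% in CEBPB, 66.0% in CEBPD and 64.9% in JUNB. JUN, at 56.1%, was below the 4-exon gene FOSL1, at 58.7%. The changes called for CEBPB, JUNB and JUND in both knockdowns in 4OHT were kept in a fit with the GC slope of each library as a covariate, in which JUND rose with siRBM39 by 0.48 (adjusted p = 2.4e-10).

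The splicing table held 34 events in 5 members (FOS, FOSL1, FOSL2, ATF3 and CEBPG), given as PSI, the percentage of transcripts that include an exon, retain an intron or use a splice site. Only 1, the 103-nt exon of FOSL1, met the coverage, PSI range and balance filters for the test of 12921 exons and introns with limma. Its mean PSI was between 86.8 and 93.5% in the 6 groups, and it was called in 0 of 5 comparisons. For comparison, 20.4% and 23.8% of the exons and introns tested were called with siSF3B1 in DMSO and 4OHT, 5.65% and 6.34% with siRBM39, and 0.913% with RAS in siNT. The unadjusted p of the FOSL1 exon was 0.205 with RAS, 0.074 and 0.65 with siSF3B1 and 0.54 and 0.75 with siRBM39, in DMSO and 4OHT. Other FOSL1 events did not meet the filters and were compared by the exact two-sided permutation test of 8 against 8 libraries, with p-values that are not adjusted. The 198-nt exon was at a mean PSI of 97.8% in 4OHT siNT, 90.02% in 4OHT siSF3B1 (exact p = 0.0011) and 93.9% in 4OHT siRBM39 (exact p = 0.043), with overlapping groups. Introns of 3234 and 2687 nt were at 8.15 and 7.92% in 4OHT siNT and at 16.9 and 15.4% in 4OHT siSF3B1 (exact p = 0.023 and 0.0051), also with overlap. In DMSO the same 3 events differed between siSF3B1 and siNT by -0.23, 1.44 and 3.77 points (exact p = 0.93, 0.60 and 0.095). Of the FOSL1 events, these 3 had the lowest exact p with siSF3B1 in 4OHT. The remaining intron, of 717 nt, was at 3.72% in 4OHT siNT and 7.51% in 4OHT siSF3B1 (exact p = 0.11). Both the 2687-nt and the 717-nt intron had failed the balance filter. For ATF3 and CEBPG events with a PSI in every library, no exact p was below 0.078.

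FOSL2 retained its last intron in cells depleted of SF3B1. This intron, of 3063 nt, was too thinly covered for the test above and was singled out after its values had been seen. Its PSI in the 4 libraries of siSF3B1-13 in DMSO was 11.1, 9.09, 13.9 and 17.1%, and in those of siSF3B1-16 it was 4.17, 12.8, 11.1 and 24.1%. In DMSO siNT it was 0 in 4 libraries and between 1.96 and 3.7% in the other 4, so that the groups did not overlap. In 4OHT the PSI was 12.5 to 17.9% with siSF3B1-13 and 7.14 to 30% with siSF3B1-16, and 0 in all 8 siNT libraries, whose 68 junction reads together allow a PSI of up to 4.41%. Means were thus 12.9% against 1.24% in DMSO and 17.2% against 0% in 4OHT. In an exact two-sided permutation test of 8 against 8 libraries, both differences had p = 1.6e-04, the smallest the test can give. Each siRNA alone gave a difference, of 11.6 and 11.8 points in DMSO and of 15.9 and 18.6 points in 4OHT. With siRBM39 the PSI was 0 in all but 3 of 16 libraries, with 7.69% the highest, and siSF3B1 was above siRBM39 in both treatments (exact permutation p = 3.1e-04 and 1.6e-04). Within siSF3B1 cells, 4OHT and DMSO differed by 4.28 points, less than the spread between libraries allows to tell (exact permutation p = 0.19). The PSI rested on 9 to 45 junction reads in a siSF3B1 library and on 4 to 26 in a siNT library. FOSL2 was thus at once higher in total counts and more often left with intron 3 in siSF3B1 cells.

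The other 2 introns of FOSL2 did not show this. Intron 1, of 10284 nt, was at 0 in all 16 siSF3B1 libraries on 24 to 174 reads each, which allows up to 0.416% in DMSO and 0.785% in 4OHT, and intron 2, of 4400 nt, was at 0 in 14 of them and at 1.96 and 2.22% in the other 2. The highest value of intron 2, 20%, was in 1 library of 4OHT siNT1 with 6 reads. At the end of intron 3, the AG 51 bases upstream, printed above, was used in 7.44% of transcripts on average in DMSO siSF3B1 and in 9.01% in 4OHT siSF3B1. In DMSO siSF3B1 it was above 0 in 5 of 8 libraries, with a median of 6.12% and a highest value of 31.25%, on 13 to 36 reads each. In 4OHT siSF3B1 it was above 0 in 6 of 8, on 7 to 22 reads each. Both groups overlapped siNT. It was used in 0.657% and 0% in siNT (exact permutation p = 0.044 and 0.0070) and in no siRBM39 library, whose reads allow up to 2.31% in DMSO and 4.62% in 4OHT. These limits take 3 reads as the most that a count of 0 allows and cover counting error only. FOSL2 exons of 114 and 103 nt were included at means of 5.71 and 4.10% in DMSO siSF3B1, against 1.27 and 0% in DMSO siNT (exact permutation p = 0.0098 and 0.0070). In 4OHT siSF3B1 they were at 5.07 and 0.754%, against 0.595 and 0.735% in 4OHT siNT, and neither difference passed (exact permutation p = 0.063 and 1). These p-values are not adjusted, and the events were looked at because intron 3 had been.

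**Figure D5:**
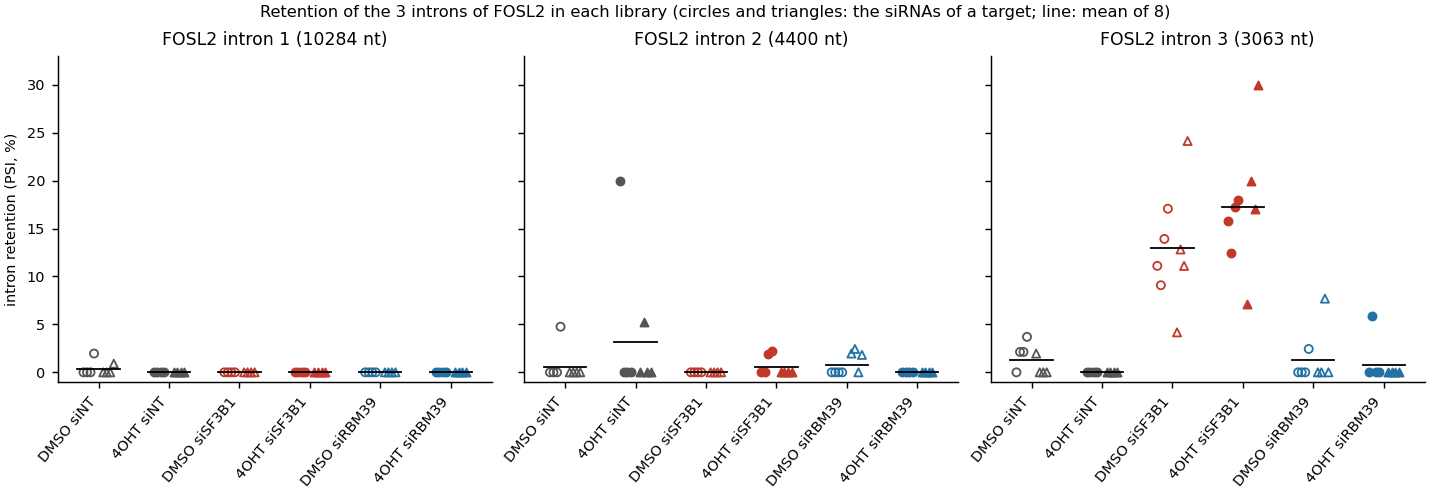
Retention of the 3 introns of FOSL2 (y axis, PSI in percent) in each of the 48 libraries by group, with circles and triangles for the siRNAs of a target and a line at the mean of 8. Intron 3 lies between 4.17 and 30% in the siSF3B1 libraries and at 7.69% or less in all others.

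Promoters of RefSeq (GRCh38.p14, from 250 bases before to 50 after the start) were found for 8 of the 10 members, all but FOSL1 and CEBPD. Both strands were searched for the AP-1 element TGANTCA, the CRE element TGACGTCA, the C/EBP element TTNNGNAA and the CArG box of SRF. TGANTCA was in the FOSL2 promoter, as in 7.71% of all 35116 promoters, and TGACGTCA in that of JUND, as in 1.85%. TTNNGNAA was in 1 of the 2 promoters of ATF3, as in 36.8% of all. The CArG box, in 1.29% of all promoters, was in none of theirs. No other element was found in these windows. Sequence more than 250 bases before the start was not searched for FOS or any other member, so sites there would be missed.

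Genes around the members were taken from lists drawn up by family and role, with earlier results of these data known. For the counts that follow, the shares of all genes called higher and lower were 39% and 39.1% with RAS in siNT, 36.5% and 36.2% with siSF3B1 in DMSO, and 39.4% and 37.6% with siSF3B1 in 4OHT. With lists this short, a difference of a few genes from those shares is not a result about the list. Among 13 other AP-1 partners, 6 passed the count filter, and with RAS the small MAF genes MAFF (2.03 ± 0.07), MAFK (1.45 ± 0.18) and MAFG (1.02 ± 0.05) rose while JDP2 (-2.62 ± 0.10), a repressor that pairs with JUN, and ATF2 (-0.21 ± 0.09) fell. With siSF3B1, 3 of the 6 rose in DMSO, 5 rose in 4OHT (MAFK, MAFG, JDP2, MAFF and ATF2), and 0 fell. Of the other genes listed with C/EBP, only DDIT3 (CHOP), a stress-induced partner that blocks binding to the usual site, and CEBPZ, listed by its symbol only, were tested. DDIT3 fell with RAS by 1.84 ± 0.14 and rose with siSF3B1 by 0.75 ± 0.13 in DMSO and by 2.34 ± 0.14 in 4OHT (adjusted p = 4.1e-20). ATF4, the stress factor upstream of DDIT3, likewise fell with RAS by 1.15 ± 0.08 and rose with siSF3B1, by 0.26 ± 0.08 and 0.59 ± 0.08. Over 6 ATF and CREB genes, 2 rose (ATF5 and CREM) and 3 fell (ATF4, ATF1 and CREB1) with RAS, and 3 rose (ATF4, CREB1 and CREM) and 2 fell (ATF5 and ATF6) with siSF3B1 in 4OHT.

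Of 14 tested kinases that act upstream of AP-1 and C/EBP, 5 were higher (MAPK13, RPS6KA3, MAP2K3, MAPK14 and MAP2K7) and 4 were lower (RPS6KA2, MAPK10, MAP2K4 and RPS6KA4) with RAS, both below the shares of all genes (39% and 39.1%). MAPK13, a p38 kinase, rose by 2.26 ± 0.14, and RPS6KA2, a kinase of the RSK family, fell by 2.86 ± 0.08. With siSF3B1 in 4OHT 6 rose, among them MAP2K7 (0.95 ± 0.08) and MAP2K4 (0.64 ± 0.04), which activate JNK, and 2 fell, RPS6KA3 and MAPK9. Of 15 immediate-early genes tested, 7 rose and 6 fell with RAS, next to 39% and 39.1% of all genes, led by NR4A3 (4.46 ± 0.14) and KLF4 (-3.75 ± 0.13). With siSF3B1 in 4OHT, 7 rose and 3 fell, where 39.4% and 37.6% of all genes did. NR4A1 (2.29 ± 0.16) and NR4A2 (2.02 ± 0.17) rose there as FOS did, whereas EGR1 (-1.39 ± 0.10) and EGR3 (-1.50 ± 0.12), also targets of ERK and SRF, fell, as did KLF6. Of 6 factors that bind AU-rich elements, through which short-lived RNAs are degraded, 2 rose (KHSRP and ELAVL1) and 3 fell (ZFP36L2, ZFP36 and HNRNPD) with RAS, with ZFP36L2 at -2.31 ± 0.05. With siSF3B1 in 4OHT 4 rose (ZFP36L2, ZFP36, HNRNPD and ELAVL1) and 0 fell.

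All 20 listed target genes of AP-1 and C/EBP were tested, and all 20 rose with RAS. The list is made largely of SASP genes and was written with that behaviour known. Their median was 5.63 on the log2 scale, against a median of 0.00 (-0.0019) over all genes, and the rises of IL1B (13.41 ± 0.22), IL8 (11.70 ± 0.22) and CXCL1 (10.78 ± 0.13) were among the largest. CCL20 had 0 counts in all 8 DMSO siNT libraries and was at least 257-fold higher in 4OHT siNT against a floor of 3 counts per library, with which the median of the 20 stayed at 5.63. With siSF3B1 in 4OHT, 9 rose and 7 fell, near the 39.4% and 37.6% of all genes that did. IL6 fell by 1.85 ± 0.15 and CCL2 by 1.59 ± 0.09, while IL11 rose by 1.45 ± 0.16 and PLAUR by 0.84 ± 0.09. With siRBM39 in 4OHT, 4 rose (PLAUR, HMGA1, TIMP1 and PLAU) and 12 fell, where 32.2% and 24.3% of all genes did, with a median of -0.47. IL6 fell by 1.97 ± 0.15, CCL20 by 1.41 ± 0.15, IL8 by 1.13 ± 0.14 and CCL2 by 1.09 ± 0.09. The effect of siRBM39 was lower in 4OHT than in DMSO for 11 of the 20 and higher for 0, where 14.1% of all genes differed in either direction. For a gene such as CCL20, with 0 counts in all 8 DMSO siNT libraries, the DMSO effect has no measured control level. These counts were not split by siRNA and include 4OHT siRBM39-08 replicate 4. In DMSO 9 of the 20 rose with siRBM39 and 0 fell.

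The patterns of the members over the 12 combinations of treatment and siRNA were compared with those of all other genes tested, as Pearson correlations of mean log2 CPM. These are descriptions, since the 12 combinations share treatments and targets and differ in depth. Closest to FOSL1 were C12orf5 (0.94), BCL2L1 (0.94) and MGRN1 (0.94), and closest to FOSL2 were C5orf41 (0.99), which encodes CREBRF, a regulator of CREB3, SMAD4 (0.98) and AMOTL2 (0.98). For JUNB the closest were KHDRBS3 (0.98), NOX4 (0.97) and FAM110B (0.96), and for JUND SDR39U1 (0.98), MAP1LC3A (0.98) and TMSB10 (0.98). For JUN no gene was above 0.87, the value of MCRS1, followed by SMARCD1 (0.84) and COX18 (0.83). ATF3 was closest to UTP14C (0.98), C1orf174 (0.98) and VPS25 (0.97), and CEBPB to NDUFAF1 (0.99), FAM134C (0.98) and CLEC2B (0.98). Among the genes closest to CEBPD were GLI2 (0.95) and TMEM97 (0.95), and CEBPG was closest to UGDH (0.99), RNF141 (0.98) and TMEM47 (0.98). Between members the strongest negative correlation was that of JUNB with CEBPD (-0.91).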

How the data were processed

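RNA was sequenced from 48 libraries of IMR90 ER:RAS G12V cells. Reads were mapped by the authors with vast-tools against the VAST-DB annotation of hg19, giving 2 deposited tables for all libraries. In the expression table the deposited counts are raw reads per gene, and the deposited cRPKM values are RPKM corrected for mappable transcript length by the authors. It lists 19847 genes, of which 19509 had counts. The deposited PSI values are percentages of inclusion that the authors computed from junction reads, with a coverage score and the reads behind each. Every column of values belonged to a sample (0 did not). Coordinates of splicing events disagreed with the named build and were not used, and sequences were read from GRCh37 at GENCODE v44lift37 borders. For single-end reads, intervals and floors cover counting error only, since duplicates cannot be told apart.

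Genes with at least 10000 counts in total (9991) were tested in R 4.3.3 with edgeR 4.0.16, using TMM factors, 6 group means over all 48 libraries, glmQLFit and glmQLFTest, and Benjamini-Hochberg adjustment (adjusted p under 0.05). A further model with 12 means, one for each siRNA and treatment, gave the differences between siRNAs. CPM and log2 CPM (prior count 2) came from the same factors. Exons and introns were kept where each library had a PSI, the PSI spanned 5 points or more and the reads of both intron ends were in balance (p of 0.05 or more), and were tested as logit(0.01 + 0.98 × PSI fraction) with limma 3.58.1, and called at an adjusted p under 0.05 and a difference of at least 5 points. FOSL2 introns were compared by exact two-sided permutation over the 12870 splits of 8 against 8 libraries. Alternatives were DESeq2 1.42.0 (its test, and its size factors in edgeR), limma-voom, other count filters, one mean per siRNA, only the libraries of a comparison, the replicate number as a block, and each replicate left out. Statistics were tested on simulated data. Tables were prepared with python 3.11.15, pandas 2.3.3 and numpy 2.4.6, and plots with matplotlib 3.10.9.

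The 10 genes and all lists were chosen with earlier results of these data known. Every member is named. From each other list up to 4 genes with the largest called change without overlap are named, and all genes of a count of 5 or fewer may be. Likeness names the 3 genes with the highest Pearson r over 12 combinations, of which 1 gene is not reported here. The methods speak of fewer replicates than the 4 in the labels, and the labels were followed.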

Additional observations from a re-analysis of the deposited data

Results flagged for a closer look

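In a Dixon test of the lowest and highest library in each group of 8, made for 10 genes in 6 groups (60 tests, critical ratio 0.526), 4 values stood apart. Chance alone would flag about 1 in 20 groups. JUN was at 207.535 CPM in 4OHT siNT1 replicate 4, with the next library of 4OHT siNT at 220.205 CPM. JUND was at 231.812 CPM in DMSO siSF3B1-13 replicate 1, with the next library of its group at 195.073 CPM. The other two came from 4OHT siRBM39-08 replicate 4, the library whose counts followed GC content most steeply. There JUND was at 304.998 CPM, next to 138.948 CPM, and CEBPB at 391.797 CPM, next to 274.413 CPM. The part of the GC slope in these levels was not tested.

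The response to knockdown of SF3B1 differed between 4OHT and DMSO for 6 of the 9 genes of the main test, where 37.8% of all genes differed, and for FOS in the fit of genes with at least 1 count, by an interaction term in edgeR (4OHT effect minus DMSO effect, log2). It was higher in 4OHT for FOS (1.8869, adjusted p = 2.2e-10), FOSL2 (0.480187, adjusted p = 4.7e-04), JUNB (0.478201, adjusted p = 0.0085), CEBPB (0.334253, adjusted p = 0.035) and JUN (0.253346, adjusted p = 0.013). It was lower in 4OHT for CEBPD (-1.3745, adjusted p = 2.6e-08) and FOSL1 (-0.768876, adjusted p = 1.3e-05). In DMSO the siSF3B1 siRNAs differed for CEBPD and FOSL1, and for FOSL2, JUNB and CEBPB as well, as given above. The response to siRBM39 differed for 1 of 9 genes, ATF3 (-0.319142, adjusted p = 0.0049), where 14.1% of all genes differed. The terms for CEBPB, JUN and ATF3 lost their calls without single replicate numbers, as given beside them above.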

How the results depend on the processing

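The members called were counted in 17 comparisons under 220 alternatives, of which 206 left the count within 1.5 times its value and 14 did not. With one mean per siRNA, the count for siRBM39 went from 3 to 6 in DMSO, from 5 to 8 in 4OHT and from 1 to 4 for the difference between treatments. With the GC slope of each library as a covariate, an alternative chosen after seeing the data, siRBM39 in DMSO went from 3 to 6, its difference between treatments from 1 to 2, siNT1 against siNT2 in DMSO from 0 to 4 and siRBM39-06 against siRBM39-08 in 4OHT from 4 to 8. Leaving out replicates gave 3 to 5 for siRBM39 in DMSO, 0 to 1 for siRBM39 by treatment, 0 to 1 for siNT1 against siNT2 in DMSO and 2 to 5 for siRBM39-06 against siRBM39-08 in 4OHT. For siSF3B1-13 against siSF3B1-16 in 4OHT (4 called) it gave 0, without replicates numbered 1, to 5, without 4OHT siRBM39-08 replicate 4. Of single genes, 1890 of 1997 values kept their side of the threshold, 50 lost and 57 gained a call, and 0 reversed. The cause of these changes was not tested.

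Of member splicing events, 1 was called with siSF3B1 in 4OHT once the balance filter was dropped, a FOSL1 intron of 2687 nt (7.47 points higher, adjusted p = 0.0428), where 0 were called with it. The FOSL2 intron 3 difference, examined after its values were seen, lay between 9.33 and 13.4 points in DMSO and between 14.96 and 19.1 points in 4OHT over the fits that each dropped the replicates of one number. Deviations of libraries with the same replicate number had a median correlation of 0.0123 over 264 pairs (from -0.898 to 0.790). Pairs with different numbers had a median of 1.3e-04 (from -0.894 to 0.930). With so wide a spread in both, these medians cannot tell whether libraries of one number shared a culture. With the replicate number as a block, the pairing moved the count in 1 of 17 comparisons, siRBM39-06 against siRBM39-08 in 4OHT, from 4 to 6.

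No scaling moved the median of all genes by over 0.0739 (log2). FOS and the FOSL2 junctions are limited by depth. No libraries of a group agreed within sampling noise (chi-square per degree of freedom 1.86 to 425 over 72 pairs).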
